A study of Homo sapiens with 4 samples.

Results

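The mitotic kinetochore is the protein assembly that joins each chromosome to the spindle, and this account follows 40 genes of the centromere, the kinetochore and the spindle checkpoint in TPC1 cells, an established human papillary thyroid carcinoma line with the CCDC6-RET rearrangement. The genes were taken by symbol from a list chosen with earlier results of these data known, and all 40 of them are among the 20372 genes of the count table. Cells were exposed to the RET inhibitor BLU6864 for 6 h in 2 libraries (BLU6H-1 and BLU6H-2) and for 24 h in another 2 (BLU24H-1 and BLU24H-2, marked as a re-analysis in the labels). All 4 libraries came from inhibitor-treated TPC1 cells grown in DMEM with serum, vehicle libraries were not analysed here, and time in culture therefore cannot be told apart from time on the inhibitor. The re-analysis mark is on the 24 h libraries only, so whatever it stands for cannot be told apart from time either. The labels give a dose of 100 µM, whereas the methods give the same number in nM, and neither source says whether the libraries of a time point came from separate cultures, so that p-values measure only the spread between these libraries.

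A centromere is marked by nucleosomes that carry the histone variant CENP-A, and on them sits a network of inner kinetochore proteins that stays in place through the cell cycle. In mitosis this inner layer recruits the outer kinetochore, whose NDC80 complex grips the microtubule, and unattached kinetochores hold back anaphase through the spindle checkpoint. The transcripts of many of these genes are known to rise toward G2 and mitosis and to be low in resting cells, in part through promoter elements bound by the DREAM complex.

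The libraries held between 23917056 and 27457040 counted reads, 12876 genes had sufficient counts to be tested, and the biological coefficient of variation was 0.0521. The 2 libraries at either time, given below in the order 1 and 2 and called a pair without any matching across times, were not copies of one another (chi-square over its degrees of freedom, 7.65 for the 24 h pair and 10.0 for the 6 h pair), and each was used as a replicate. Of the thyroid markers, PAX8 was abundant, with normalized counts from 19961 to 22045, whereas NKX2-1 and TSHR had 0 counts in each library and SLC5A5 had at most 7. The 9 markers of blood, vessel and fibroblast cells in the table summed to between 2.13 and 3.16 CPM (counts scaled to the library size). Of them LUM had 42.1 and 38.4 normalized counts at 6 h and 70.7 and 64.2 at 24 h, VWF had 17.3 and 10.6 and then 2.99 and 4.87, and their part in the results was not tested.

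Most of the 40 genes were far lower at 24 h than at 6 h. Of the 40 genes, 37 fell between the time points in edgeR's quasi-likelihood test (Benjamini-Hochberg adjusted p under 0.05), against 32.6% of all genes tested. CENPB and MAD1L1 were higher at 24 h, the direction called for 33.0% of all genes, and PMF1 passed in neither direction. The adjusted p from edgeR was at most 0.00255 for the 39 genes called, and its standard errors ranged from 0.0705 to 0.191 on the log2 scale. DESeq2 gave a larger standard error for each of the 40 genes, such as 0.272 against 0.115 for NUF2 and 0.225 against 0.0976 for ZWINT. The precision of single genes thus depends on the model. The median log2 fold change of the 40 genes was -3.05, whereas that of all 12876 genes was 0.0029. A fall of more than 4-fold, a log2 fold change under -2, was called for 30 of the 40, each with an adjusted p of at most 6.26e-11 in edgeR, and for 3.36% of all genes. Of the 100 lowest log2 fold changes among all genes tested, 14 belonged to these 40 genes, while 100 genes are 0.777% of those tested. Both 24 h libraries were below both 6 h libraries in 38 of the 40 genes, against 40.8% of all genes, and above them in the remaining 2, against 41.0%.

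**Figure D1:**
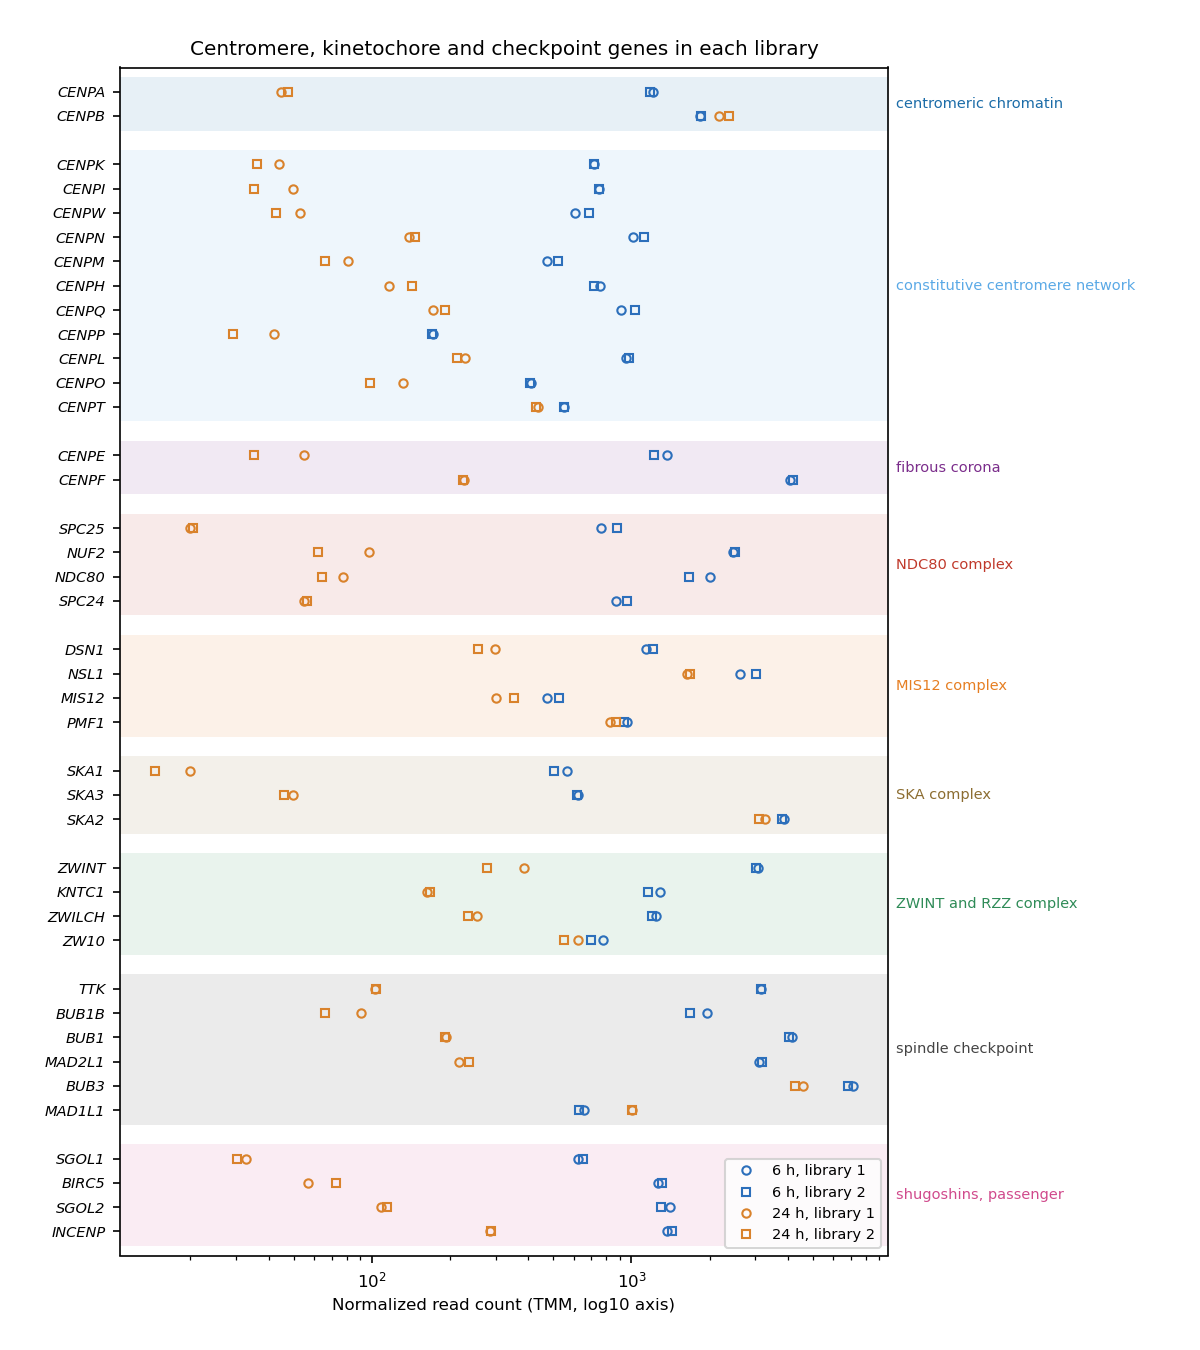
Normalized read counts (log10 axis) of the 40 genes in each of the 2 libraries at 6 h (blue) and the 2 at 24 h (orange), grouped by complex. In 38 genes both orange points lie left of both blue points, and in CENPB and MAD1L1 they lie right of them.

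Together the 40 genes took 0.245% and 0.245% of all counts at 6 h, and 0.0710% and 0.0682% at 24 h. The 30 genes with a log2 fold change under -2 made up 69.6% and 69.4% of the summed CPM of the list at 6 h, and 20.0% and 19.3% at 24 h. The transcripts left at 24 h thus came mainly from the other 10 genes. The share of the 30 had to fall, because they were chosen by their falls in these same libraries. In an RNA pool from whole cultures, fewer cells in mitosis and less of a transcript in each cell cannot be told apart.

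The changes fell into a steep group and a shallow group, with a wide interval between them. Ordered by log2 fold change, neighbours were separated by at most 1.07, and this largest step lay between CENPO at -1.83 and NSL1 at -0.76, with 31 genes below it and 9 above. The 9 genes above it were NSL1, BUB3, MIS12, CENPT, ZW10, SKA2, PMF1, CENPB and MAD1L1. Every group of the list with 3 or more genes, apart from the NDC80 complex and the shugoshin and passenger genes, held at least 1 gene of the shallow group. All 40 genes had at least 15 counts in every library, so no member entered the test through a single time point. Across the 40 genes the log2 fold change was only weakly related to the normalized count at 6 h, with a Spearman rho of -0.18 as a description over genes measured in the same libraries. The genes lie on 20 chromosomes.

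**Figure D2:**
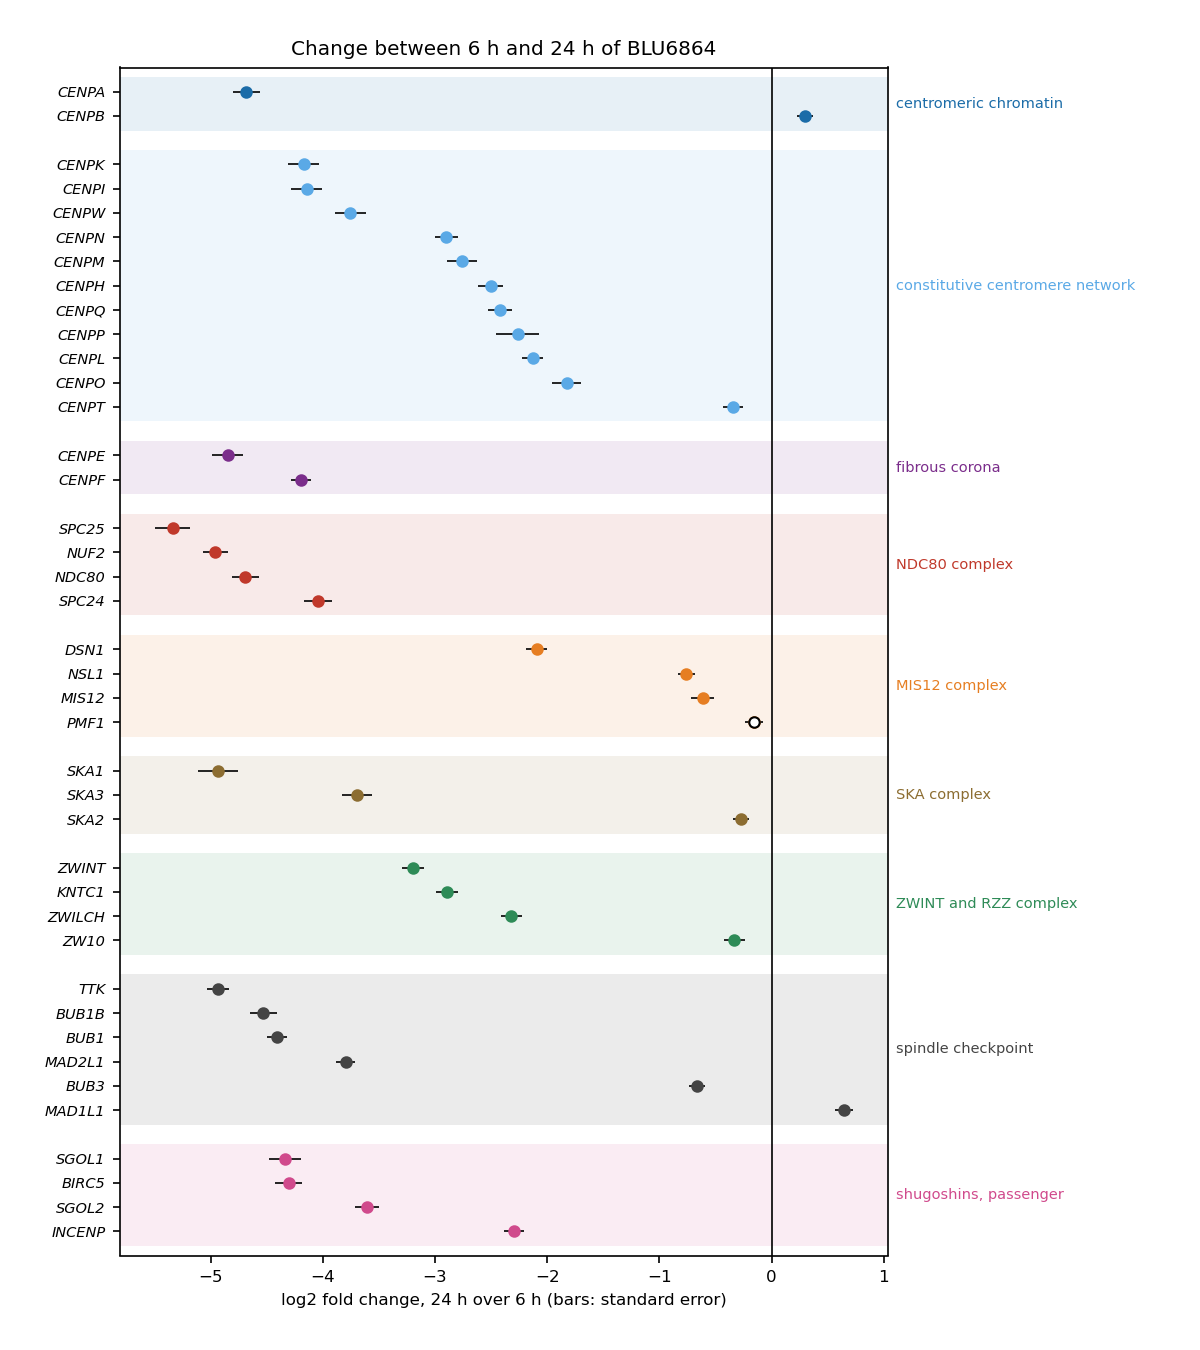
Log2 fold change of 24 h over 6 h for each of the 40 genes, with its standard error, grouped by complex; the open symbol is PMF1, which was not called. SPC25 lies furthest left at -5.34 and MAD1L1 furthest right at 0.65, and 9 genes lie above -1.

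Promoter sequences are shown because the cell cycle genes homology region (CHR), the element read by the DREAM complex, is a short motif near the start of many mitotic genes. Whether it had a part in the falls was not tested. RefSeq promoters of GRCh38.p14, from 250 bases before to 50 bases after the first listed start site, were found for 33 of the 40 genes. The letters TTTGAA and TTTAAA were searched on both strands, and a match on the opposite strand of the first reads TTCAAA. In the whole 300 bases, 16 of the 33 promoters held a match, against 24.3% of 27305 promoters of all genes and 15.8% of the 10462 promoters of genes tested. The match was present there in 14 of 24 promoters of genes with a log2 fold change under -2 and in 2 of 9 others, those of CENPO and ZW10. These 9 others are not the 9 genes of the shallow group. They include CENPO, which belongs to the steep group, and lack BUB3, for which no promoter was found. In the narrower window from 100 bases before the start to its end, 15 of the 33 promoters held a match, against 11.3% of all promoters and 6.24% of those of genes tested, with the same 14 of 24 and with 1 of 9, that of CENPO. These shares are a description, a match is not a bound site, and no binding was measured. Promoters of 7 genes with a match are given, from SPC25 with the largest fall to INCENP with a smaller one. The promoters of the 2 genes that were higher at 24 h, which hold no match, follow them. No falling gene without a match is shown, so these promoters are not a sample of the 33. Each is given with 120 bases before the start and 10 from it, 5′ to 3′ on the gene's strand, with each match in capitals.
SPC25 (chr2:168890421-168890550, minus strand): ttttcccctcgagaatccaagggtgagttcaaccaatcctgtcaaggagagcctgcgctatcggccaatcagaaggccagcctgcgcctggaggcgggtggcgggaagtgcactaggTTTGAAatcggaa
CENPE (chr4:103198334-103198463, minus strand): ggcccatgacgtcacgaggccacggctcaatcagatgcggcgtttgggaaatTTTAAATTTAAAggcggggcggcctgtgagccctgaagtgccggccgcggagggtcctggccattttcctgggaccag
CENPA (chr2:26785936-26786065, plus strand): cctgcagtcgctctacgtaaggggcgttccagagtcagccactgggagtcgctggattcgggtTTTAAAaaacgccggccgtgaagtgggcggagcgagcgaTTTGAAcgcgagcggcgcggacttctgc
NDC80 (chr18:2571437-2571566, plus strand): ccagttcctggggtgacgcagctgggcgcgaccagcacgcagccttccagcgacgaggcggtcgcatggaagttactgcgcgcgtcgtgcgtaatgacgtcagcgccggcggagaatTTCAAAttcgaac
BUB1B (chr15:40160949-40161078, plus strand): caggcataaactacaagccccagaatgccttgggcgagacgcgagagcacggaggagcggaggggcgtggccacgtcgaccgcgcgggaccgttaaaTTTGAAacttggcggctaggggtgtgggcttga
SKA3 (chr13:21176543-21176672, minus strand): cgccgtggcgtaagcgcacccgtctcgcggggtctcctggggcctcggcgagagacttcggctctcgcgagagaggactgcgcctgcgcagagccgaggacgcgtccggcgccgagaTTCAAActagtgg
INCENP (chr11:62123891-62124020, plus strand): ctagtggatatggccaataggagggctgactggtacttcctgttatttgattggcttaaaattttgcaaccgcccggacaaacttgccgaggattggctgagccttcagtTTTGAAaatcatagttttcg
CENPB (chr20:3786731-3786860, minus strand): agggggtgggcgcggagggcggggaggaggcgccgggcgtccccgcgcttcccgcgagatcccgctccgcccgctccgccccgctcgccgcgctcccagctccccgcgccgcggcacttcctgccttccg
MAD1L1 (chr7:2232936-2233065, minus strand): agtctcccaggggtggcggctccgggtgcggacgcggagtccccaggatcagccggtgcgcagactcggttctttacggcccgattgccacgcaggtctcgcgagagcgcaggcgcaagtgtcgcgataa

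The match nearest the start began 3 bases before the start in SPC25, NDC80 and SKA3, 10 bases before it in INCENP and 23 bases before it in BUB1B. CENPE held a pair of abutting matches at 68 and 62 bases before the start, and CENPA held matches at 57 and 18 bases before it. In ZWINT it began 31 bases before the start, and in CENPN 3 bases after it. In NUF2, MAD2L1, SKA1, SGOL2, CENPO and CENPF a match lay further inside the transcript, between 16 and 40 bases after the start. Steep falls also occurred without the letters: BUB1, SGOL1, CENPK, CENPI, SPC24 and CENPW had no match in the 300 bases, and their log2 fold changes lay between -4.41 and -3.75. CENPQ, ZWILCH, CENPP and DSN1 had no match either, with log2 fold changes between -2.42 and -2.09. The CCAAT box, letters CCAAT on either strand, was found in the whole window of 15 of the 24 promoters of genes under -2 and 4 of the 9 others, against 36.6% of promoters of genes tested. An E2F site was searched on both strands as TTCGCGC, as the variant spelled TTGGCGC and also as the variant spelled TTCCCGC, and was found in 7 of the 24 and 4 of the 9, against 17.9%. In the narrower window the CCAAT letters were found in 12 of the 24 and 3 of the 9, against 23.6% of promoters of genes tested, and an E2F site in 5 of the 24 and 2 of the 9, against 9.81%. Matches of different motifs could overlap and were each counted.

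**Figure D3:**
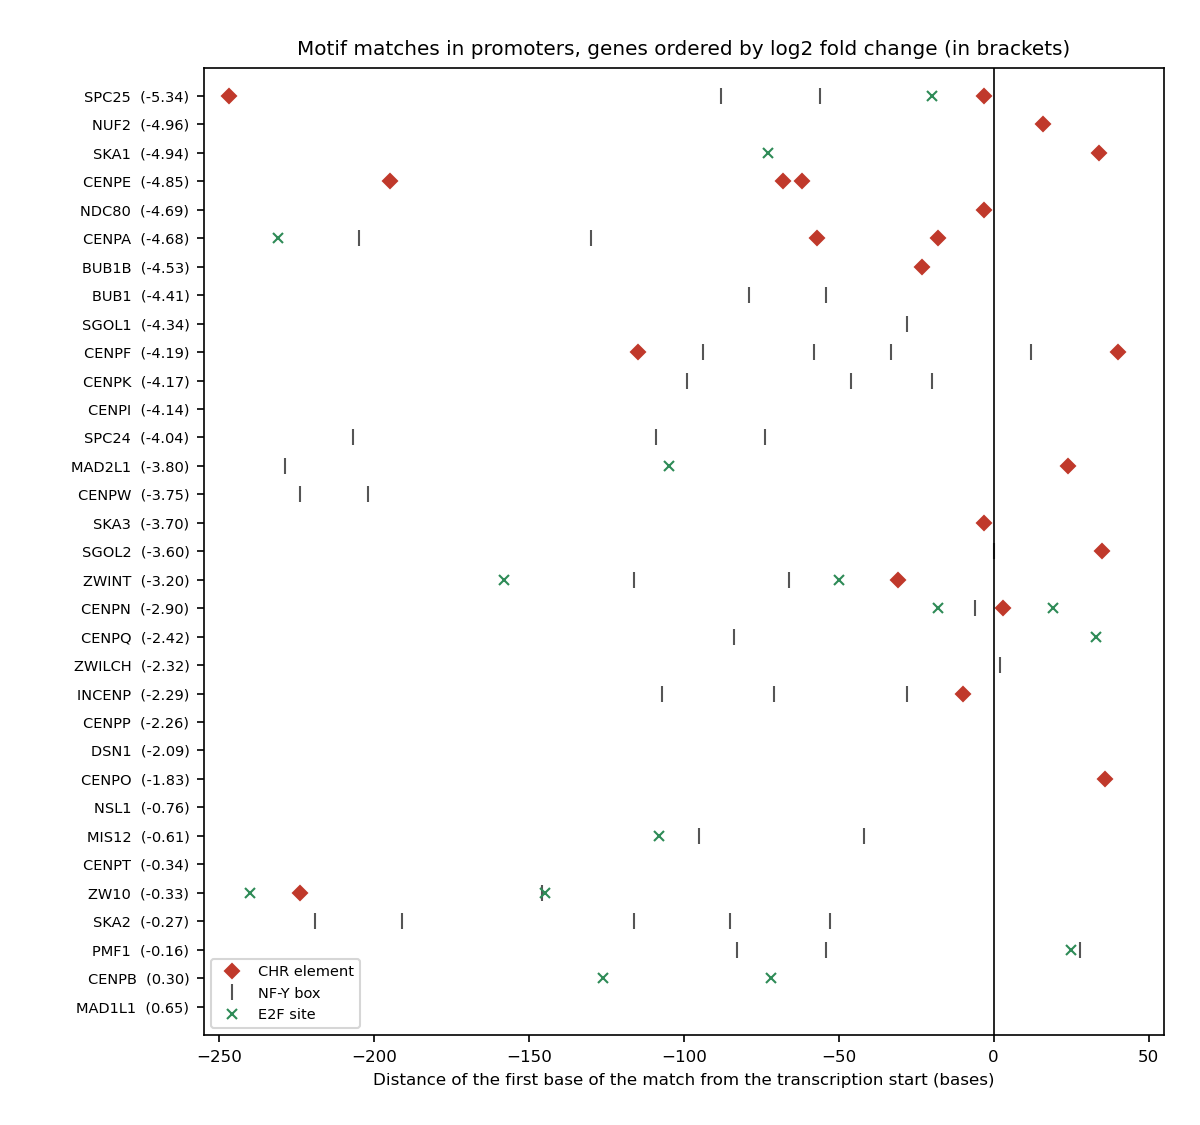
Position of CHR elements (diamonds), NF-Y boxes with the letters CCAAT (bars) and E2F sites (crosses) relative to the transcription start in the 33 promoters, with genes ordered from the largest fall to the rise (log2 fold change in brackets). CHR matches crowd between 100 bases before and 50 after the start in the upper rows. The lower 9 rows, which begin with CENPO of the steep group, hold 2, in CENPO and far upstream in ZW10.

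The NDC80 complex, the rod that binds the microtubule, fell most as a group, with a median log2 fold change of -4.82 over its 4 genes. SPC25, which with SPC24 forms the end of the rod that faces the chromosome, had 760.0 and 881 normalized counts in the 6 h pair and 19.9 and 20.4 in the 24 h pair. Its log2 fold change of -5.34 ± 0.158 (here and later ± the standard error; adjusted p = 9.75e-21 in edgeR) was the largest fall of the 40 genes and the 15th lowest of all genes tested. NUF2 had 2461 and 2502 normalized counts in the 6 h pair and 97.6 and 62.3 in the 24 h pair, and the log2 change was -4.96. NUF2 and NDC80 form the end that grips the microtubule, and NDC80 had 2000.3 and 1669 normalized counts in the 6 h pair and 77.7 and 64.2 in the 24 h pair, which is a log2 change of -4.69. SPC24 fell least of the 4, with 870.1 and 960.3 normalized counts in the 6 h pair and 54.8 and 56.4 in the 24 h pair and a log2 fold change of -4.04 ± 0.125. In each of the 4 genes both 24 h libraries lay far below both 6 h libraries. Per length of transcript (CPM per kb of the MANE Select transcript, which depends on that choice of transcript), the level of SPC24 was 0.67 and 0.64 times that of SPC25 in the 6 h libraries and 1.61 and 1.62 times in the 24 h libraries, so the order of these partners turned round.

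The genes of the fibrous corona, the outermost layer that captures microtubules before stable attachment, fell by a similar amount. CENPE, a kinesin that carries chromosomes to the spindle equator, had 1367 and 1222 normalized counts in the 6 h pair and 54.8 and 35.0 in the 24 h pair. This is a log2 fold change of -4.85 ± 0.136, and its 24 h libraries held 55 and 36 reads. CENPF, a large coiled-coil protein of the corona, had 4086 and 4183 normalized counts in the 6 h pair and 227 and 225 in the 24 h pair, which is a log2 change of -4.19 ± 0.0858.

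Among the 3 SKA genes, whose products form a complex that follows the shortening microtubule, 2 fell steeply and SKA2 fell little. SKA1 had 562 and 501 normalized counts in the 6 h pair and 19.9 and 14.6 in the 24 h pair, which is a log2 change of -4.94. SKA3 had 625 and 617 normalized counts in the 6 h pair and 49.8 and 45.7 in the 24 h pair, which is a log2 change of -3.70. SKA2 stood at 3877 and 3815 normalized counts in the 6 h pair and 3269 and 3098 in the 24 h pair, and the log2 change of -0.27 ± 0.0705 (adjusted p = 0.00142 in edgeR) was a small fall that passed the test. On the per-length scale, SKA2 was 6.99 and 7.73 times the level of SKA1 at 6 h and 166 and 215 times at 24 h. The promoter of SKA2 held no CHR letters and 5 CCAAT boxes.

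**Figure D4:**
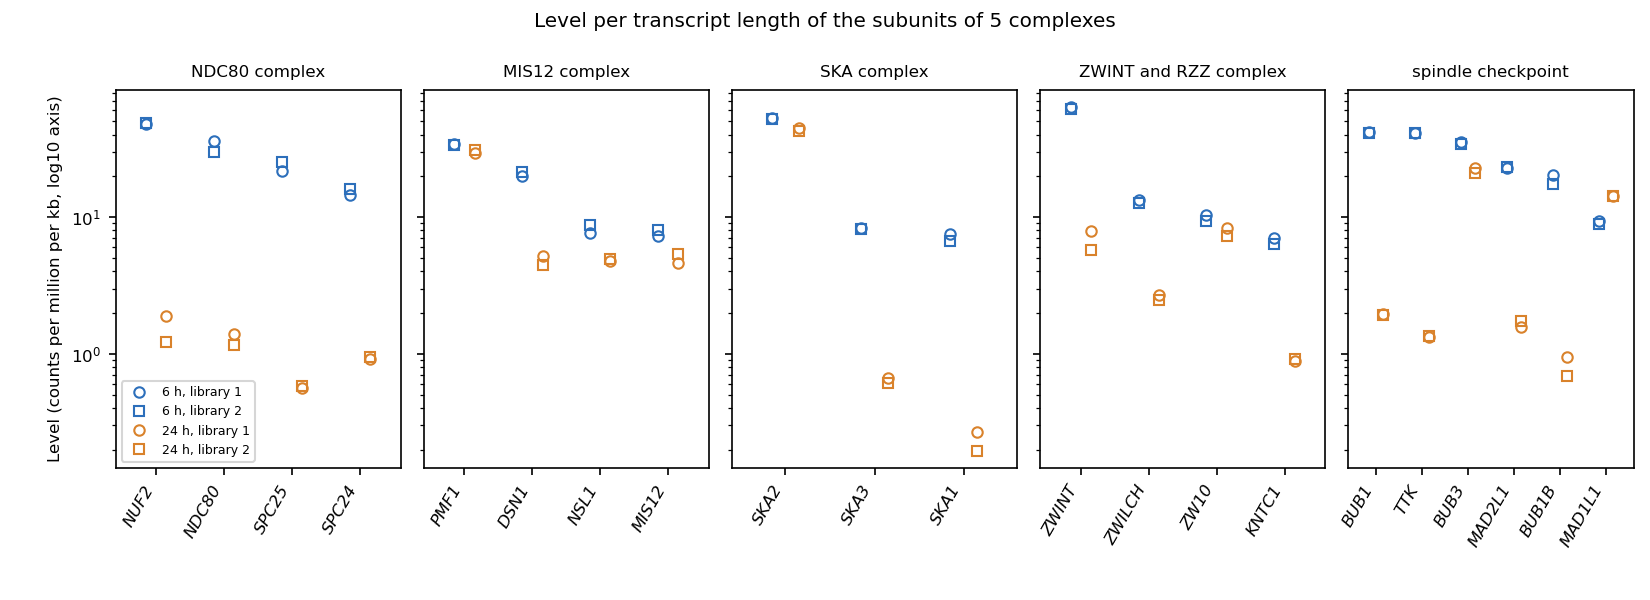
Level in CPM per kb of transcript (log10 axis) of the subunits of 5 complexes in the 2 libraries at 6 h (blue) and the 2 at 24 h (orange). In the SKA panel SKA2 changes by less than 2-fold while SKA1 and SKA3 fall more than 10-fold, and in the checkpoint panel BUB3 and MAD1L1 change by less than 2-fold while TTK, BUB1, BUB1B and MAD2L1 fall more than 10-fold.

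The spindle checkpoint genes split into 4 that fell more than 10-fold and 2 that did not. TTK, the kinase that starts checkpoint signalling at the kinetochore, had 3164 and 3166 normalized counts in the 6 h pair and 103 and 104 in the 24 h pair. Its libraries were close within each time point, and the log2 fold change was -4.93 ± 0.0949 (adjusted p = 1.93e-24 in edgeR). BUB1, a kinase that serves as a checkpoint scaffold, had 4139 and 4027 normalized counts in the 6 h pair and 193 and 191 in the 24 h pair, which is a log2 change of -4.41. BUB1B, which encodes the anaphase inhibitor BUBR1 and shares 10.2% of its exonic bases with PAK6 and another gene on the same strand, had 1952 and 1678 normalized counts in the 6 h pair and 90.7 and 66.2 in the 24 h pair, which is a log2 change of -4.53. MAD2L1, the protein whose closed form sequesters CDC20, had 3107 and 3182 normalized counts in the 6 h pair and 216 and 236 in the 24 h pair, which is a log2 change of -3.80. The time points did not overlap in any of the 4 genes, and 40.8% of all genes likewise had both 24 h libraries below both 6 h libraries.

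The transcripts of their partners BUB3 and MAD1L1 moved less. BUB3, which carries BUB1 and BUBR1 to the kinetochore and also acts outside mitosis, had 7139 and 6851 normalized counts in the 6 h pair and 4593 and 4249 in the 24 h pair. Its log2 fold change was -0.66 ± 0.0729. MAD1L1, the platform on which MAD2 is converted to its active form, rose from 657 and 628 normalized counts at 6 h to 1005 and 1006 at 24 h. The log2 fold change of MAD1L1 was 0.65 ± 0.0811 (adjusted p = 1.02e-07 in edgeR), and the time points did not overlap. Per length of transcript, the level of MAD1L1 was 0.41 and 0.38 times that of MAD2L1 in the 6 h libraries and 9.02 and 8.25 times in the 24 h libraries. BUB3 likewise went from 0.84 and 0.83 times the per-length level of BUB1 at 6 h to 11.6 and 10.9 times at 24 h.

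Of the 2 genes of centromeric chromatin, one fell and the other rose. CENPA, the histone H3 variant that defines the centromere, had 1207 and 1175 normalized counts in the 6 h pair and 44.8 and 47.7 in the 24 h pair. Its log2 fold change was -4.68 ± 0.121 (adjusted p = 5.36e-22 in edgeR). CENPB, which binds a short box in centromeric satellite DNA, had 1836 and 1858 normalized counts in the 6 h pair and 2164 and 2381 in the 24 h pair, and the log2 change of 0.30 ± 0.0718 (adjusted p = 0.000707 in edgeR) was a small rise. The per-length level of CENPB was 0.73 and 0.76 times that of CENPA at 6 h and 23.2 and 24.0 times at 24 h.

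All 11 listed genes of the constitutive centromere-associated network fell, over a wide range of log2 fold changes from -4.17 to -0.34. Other genes of the network, such as CENPC at -0.81 and CENPU at -4.53, were counted with the other kinetochore genes described below. CENPK had 720.0 and 719.5 normalized counts in the 6 h pair and 43.8 and 36.0 in the 24 h pair, which is a log2 change of -4.17, and CENPI had 750.3 and 749 normalized counts in the 6 h pair and 49.8 and 35.0 in the 24 h pair, which is a log2 change of -4.14. Both belong to the subcomplex that also holds CENPH and CENPM, yet these fell less. CENPH had 758 and 719 normalized counts in the 6 h pair and 117 and 143 in the 24 h pair, which is a log2 change of -2.50 ± 0.112. CENPM had 474 and 519 normalized counts in the 6 h pair and 80.7 and 66.2 in the 24 h pair, which is a log2 change of -2.76 ± 0.133. Per length, the level of CENPH was 1.35 and 1.28 times that of CENPK in the 6 h libraries and 3.40 and 5.08 times in the 24 h libraries.

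CENPN and CENPL form the pair that reads the CENP-A nucleosome. CENPN had 1018 and 1114 normalized counts in the 6 h pair and 138 and 147 in the 24 h pair, which is a log2 change of -2.90 ± 0.103, while CENPL had 951 and 980.5 normalized counts in the 6 h pair and 228 and 213 in the 24 h pair, which is a log2 change of -2.13 ± 0.0954. The products of CENPO, CENPP and CENPQ belong to a further subcomplex of the network. CENPQ had 908 and 1030.4 normalized counts in the 6 h pair and 171 and 191 in the 24 h pair, which is a log2 change of -2.42. CENPP had 172 and 169.8 normalized counts in the 6 h pair and 41.8 and 29.2 in the 24 h pair, which is a log2 change of -2.26 ± 0.191, and CENPO had 410.2 and 405 normalized counts in the 6 h pair and 132 and 98.3 in the 24 h pair, which is a log2 change of -1.83 ± 0.130. In GENCODE v44, 39.9% of the exonic bases of CENPP and 31.6% of those of CENPO are shared with exons of other genes of the table on the opposite strand, and their counts are uncertain. The counting program and its strand setting are not given in the sources used here.

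CENPT and CENPW are histone-fold partners that together reach from the DNA to the outer kinetochore, and their transcripts changed by very different amounts. CENPW had 606 and 684 normalized counts in the 6 h pair and 52.8 and 42.8 in the 24 h pair, which is a log2 change of -3.75. CENPT had 549 and 549.7 normalized counts in the 6 h pair and 436 and 429 in the 24 h pair, and the log2 change of -0.34 ± 0.0913 (adjusted p = 0.00177 in edgeR) was a small fall. Per length of transcript, CENPT was 0.28 and 0.25 times the level of CENPW at 6 h and 2.59 and 3.14 times at 24 h. Of the exonic bases of CENPT, 20.2% overlap exons of other genes of the table on the opposite strand, and the part of those genes in its count was not tested.

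The MIS12 complex, which links the inner network to NDC80, had the smallest median change among the groups of the 40 genes, with a median log2 fold change of -0.69. DSN1 was its one gene with a fall of more than 4-fold and had 1142 and 1213 normalized counts in the 6 h pair and 297 and 256 in the 24 h pair, which is a log2 change of -2.09. NSL1 had 2612 and 3008 normalized counts in the 6 h pair and 1639.9 and 1685 in the 24 h pair, which is a log2 change of -0.76 ± 0.0755, and MIS12 had 472 and 527 normalized counts in the 6 h pair and 302 and 351 in the 24 h pair, which is a log2 change of -0.61 ± 0.103. PMF1 stood at 959 and 934 normalized counts in the 6 h pair and 826 and 869 in the 24 h pair. Its log2 change was -0.16 ± 0.0791 (adjusted p = 0.0799 in edgeR), so no change was called. Both of its 24 h libraries were below both 6 h libraries, as in 40.8% of all genes. The locus of PMF1 shares 23.3% of its exonic bases with the readthrough gene PMF1-BGLAP on the same strand, so its count is uncertain. Scaled to transcript length, PMF1 was 1.71 and 1.57 times the level of DSN1 at 6 h and 5.68 and 6.93 times at 24 h.

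Of the RZZ complex, which brings dynein and MAD1 to the kinetochore, ZW10 fell far less than its partners. ZWINT, which was named for its binding to ZW10 and sits with KNL1 at the outer kinetochore, had 3079 and 3007 normalized counts in the 6 h pair and 385 and 278 in the 24 h pair, which is a log2 change of -3.20. KNTC1, the Rod subunit, had 1290.0 and 1161 normalized counts in the 6 h pair and 162 and 167 in the 24 h pair, which is a log2 change of -2.89. ZWILCH, their partner, had 1245 and 1195 normalized counts in the 6 h pair and 255 and 234 in the 24 h pair, which is a log2 change of -2.32, and 10.9% of its exonic bases overlap LCTL and RPL4 on the opposite strand. ZW10, which also works in membrane traffic between the Golgi and the endoplasmic reticulum, stood at 778 and 697 normalized counts in the 6 h pair and 625 and 548 in the 24 h pair, with a log2 fold change of -0.33 ± 0.0913 (adjusted p = 0.00255 in edgeR). The fall of ZW10 was not called without the second 24 h library (adjusted p = 0.0632 in edgeR) or without the first 6 h library (adjusted p = 0.0570 in edgeR). The per-length level of ZW10 was 1.46 times that of KNTC1 in each 6 h library and 9.34 and 7.95 times in the 24 h libraries.

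The shugoshins, which protect centromeric cohesin until anaphase, and 2 subunits of the chromosomal passenger complex fell in all 4 genes. SGOL1 had 625 and 651 normalized counts in the 6 h pair and 32.9 and 30.2 in the 24 h pair, which is a log2 change of -4.34, and SGOL2 had 1413 and 1295 normalized counts in the 6 h pair and 109 and 114 in the 24 h pair, which is a log2 change of -3.60. BIRC5, which encodes survivin, had 1261 and 1311 normalized counts in the 6 h pair and 56.8 and 73.0 in the 24 h pair, which is a log2 change of -4.30. INCENP, the scaffold of the passenger complex, had 1375 and 1429 normalized counts in the 6 h pair and 284 and 288 in the 24 h pair, and the log2 change of -2.29 ± 0.0875 was the smallest fall of the 4. The per-length level of INCENP was 0.68 times that of BIRC5 in each 6 h library and 3.13 and 2.47 times in the 24 h libraries, although both genes fell.

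**Figure D5:**
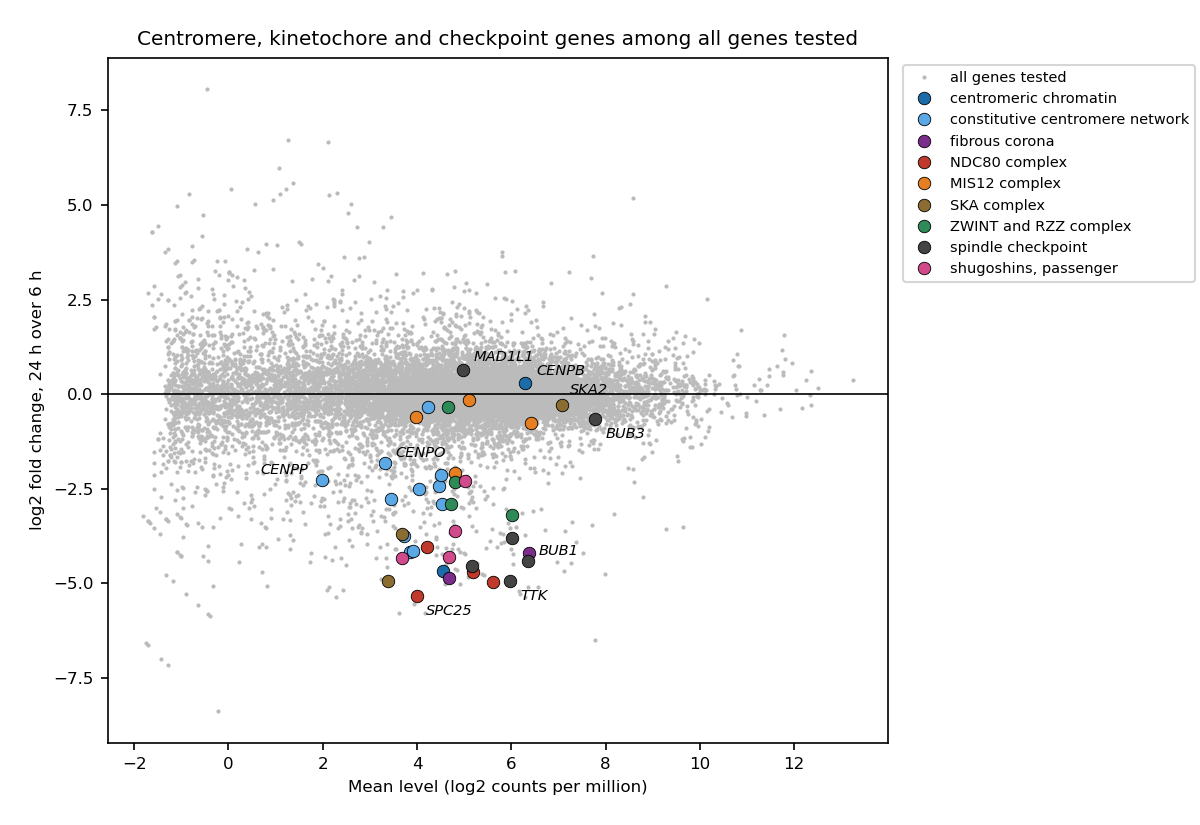
Log2 fold change of 24 h over 6 h against mean level (log2 CPM) for all 12876 genes tested (grey) and the 40 genes coloured by complex. The 31 genes from SPC25 to CENPO lie at -1.83 or below, and the other 9 lie between -0.76 and 0.65 within the dense grey band.

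The spread between libraries of a time point was small beside the changes of the steep group. The ratio of the second to the first library had a median over the 40 genes of 0.966 at 24 h and 0.999 at 6 h. Single genes ranged from 0.64 to 1.29 at 24 h and from 0.83 to 1.16 at 6 h. At 24 h, 16 of the 40 genes had a mean under 100 normalized counts, against 0 of the 40 at 6 h.

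Other kinetochore genes, from a list of 27 that shares no gene with the 40, also fell in most cases. At an adjusted p under 0.05 in edgeR, 23 were lower and 1 higher, against 32.6% and 33.0% of all genes tested. Their median log2 fold change was -1.79, and 12 of them were called lower with a value under -2, against 3.36% of all genes. KIF2C, a kinesin that takes microtubule ends apart, had the largest fall among them with a log2 fold change of -4.78, and the one called higher was BOD1 at 0.30. Of 20 genes of separase and the anaphase promoting complex, the ubiquitin ligase that the checkpoint holds back, 11 were called lower and 4 higher, against 32.6% and 33.0% of all genes tested. UBE2C, its ubiquitin-conjugating enzyme, had a log2 fold change of -4.46, and ANAPC1, its largest subunit, had one of 0.54. The median of this list was -0.27.

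Beside these, all 10 mitotic kinase and B cyclin genes fell, with a median of -4.14 on the log2 scale and CDC25C at -5.79. AURKB and PLK1 are counted both there and among the 27 kinetochore genes. The 12 replication licensing genes were also all lower, with a median of -1.60 and the largest fall in MCM10 at -3.34. For both lists the share of all genes called lower was 32.6%. A fall with a value under -2 was called for 9 of the 10 and 5 of the 12 genes, against 3.36% of all genes. It was called for 5 of the 20 genes of separase and the anaphase promoting complex. The difference between these lists and the 40 genes was not tested.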

How the data were processed

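RNA from TPC1 cells treated with BLU6864 was sequenced in 2 libraries at 6 h and 2 at 24 h. The submitters' processing notes name STAR 2.3, DESeq2 and the hg19 build, and the methods name a later STAR. The labels name single-end reads of a TruSeq RNA kit, whereas the methods describe paired-end reads, and the counting program and strand setting are not given in the sources used here. The authors deposited raw read counts per gene without normalization, which were used here. They also deposited a signal, the count divided by 1 size factor per library, and their own comparison of 24 h with 6 h (fold changes and p-values), neither of which was used. The number of unused columns of per-sample values from other samples was 0.

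The test was run in edgeR 4.0.16 under R 4.3.3 (filterByExpr, TMM, quasi-likelihood test, time as the factor, Benjamini-Hochberg adjustment over 12876 genes, called at an adjusted p under 0.05). Each standard error is the size of the log2 fold change over the square root of F. For normalized counts and CPM, library sizes were scaled by TMM, and for normalized counts they were set against their mean. The DESeq2 alternative used version 1.42.0. Levels per length divide CPM by the MANE Select transcript of GENCODE v44 and depend on that choice of transcript. The script was tested on simulated data. Genes and lists were chosen with earlier results of these data known. All 40 genes were named, and of each other list the called gene with the largest fall and with the largest rise. Promoters of CENPH, CENPL, CENPM, BIRC5, BUB3, TTK and KNTC1 were not used here.

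Alternatives were other scalings, filters and tests, a block and each library left out. With 2 libraries per time point, no outliers were tested. Totals of 23917056 to 27457040 counts set the precision, which is lowest for genes with few reads at 24 h.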

Additional observations from a re-analysis of the deposited data

How the results depend on the processing

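The number of the 40 genes lower at 24 h was 37 with DESeq2, upper quartile scaling, no filter, at least 10 counts in every library and an adjusted p under 0.01, and 38 with library size alone and with the replicate number as a block. It ranged from 36 to 37 with each library left out, where the lone library of a time point is assumed to vary like the other pair. The number under a log2 fold change of -2 was 30 under these settings and ranged from 29 to 31 with a library left out, and 2 genes were higher in each case. The median log2 fold change shifted by over 1 replicate SD when a 24 h library was left out, and ranged from -3.18 to -2.96 over the 4 libraries left out in turn. The cause was not tested. Of 440 values of single genes under these alternatives, 436 kept their direction and call. PMF1 was called lower with library size alone (-0.20) and with the block (-0.16), and ZW10 was no longer called without the second 24 h library (-0.23) or the first 6 h library (-0.25). No value changed sign.

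The replicate numbers occur at both time points, but no source says what they mark, and the deviations of same-numbered libraries correlated across genes at 0.0685. With the block, the median log2 fold change was -3.05, and 4448 of all genes were lower in place of 4196. Counts at 24 h limit the precision of the steep genes, with 15 to 20 reads of SKA1 in a library.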
